A study of Mus musculus with 2 samples.

Results

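Genes of mitochondrial ribosomal proteins, the Mrpl and Mrps families, were compared between dendritic cells with and without the microRNA miR-155 after lipopolysaccharide (LPS) treatment. They were chosen by symbol alone: every probe set that the platform annotation assigned to exactly 1 gene named Mrpl or Mrps with a number, without Mrpl39, which lies beside the deleted microRNA gene. This gave 154 probe sets of 75 genes, out of 34945 probe sets of 18193 genes. The study has 1 array per genotype, wild type + LPS and miR155-/- + LPS, both from C57BL/6J mice. Both cultures came from bone marrow kept in GM-CSF (20 ng/ml, 7 days), a growth factor, before LPS, a bacterial cell wall component, was added at 10 ng/ml. The groups therefore share GM-CSF and LPS, and no untreated cells were measured. The age of the mice, how many stood behind each sample and the duration of LPS treatment were not stated, and the growth protocol calls the cells macrophages where all other labels say dendritic cells. The knockout is of the whole animal as far as the labels say.

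Mitochondria keep a small genome of their own that codes for a few subunits of the respiratory chain. Those subunits are made inside the organelle by the mitochondrial ribosome, which has a large and a small subunit. Its RNAs come from the mitochondrial genome, whereas its proteins are encoded in the nucleus and imported. Many of these proteins descend from bacterial ribosomal proteins, and the others are found only in mitochondria. Dendritic cells activated by LPS are known to shift from respiration towards glycolysis. miR-155 is induced by LPS and lowers transcripts that pair with its seed, bases 2 to 8. The mature strand lost in the knockout is shown with the seed in capitals, from RefSeq (GRCm38.p6, chr16:84714143-84714165, plus strand).

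mmu-miR-155-5p: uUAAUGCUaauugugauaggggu

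The deposited intensities had medians of 58.4 on the wild-type and 78.3 on the knockout array, so the arrays were quantile normalized, and every signal below is a normalized intensity. A difference is the log2 signal in knockout minus that in wild type, and it is read against most other genes, which normalization centres near 0. With 1 array per genotype there is no replicate error and no test. The error that can be measured is the disagreement between probe sets of 1 gene, with an SD of 0.29 over all genes (11653 probe sets of 4410 genes) and 0.25 over 79 probe sets of 29 Mrp genes. It contains no variation between mice or cultures. In cells of mixed culture, fewer cells of a type and less RNA per cell cannot be told apart.

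The markers of the labelled cell type, the dendritic cell, were bright for Itgax (4290 in wild type, 5331 in knockout), Cd74 (11584 and 11156) and H2-Aa (8637 and 7898). Flt3, another dendritic cell marker, was dim, at 62.8 and 88.8. Of the 9 dendritic cell markers 2 were higher (Itgax and Flt3) and 7 lower, with a median difference of -0.18. The lowest were the maturation markers Cd83 (5619 and 3610, -0.64) and Ccr7 (6287 and 4304, -0.55), then Zbtb46 (-0.43) and Ciita (-0.41). Macrophage markers ranged from bright, with Csf1r at 9826 and 11268, to dim, with Mrc1 at 138 in wild type and 288 in knockout. Of the 6 measured, 5 were higher and 1 was lower (Fcgr1, -0.24), with a median difference of 0.51. The summed signal of the measured markers was 1523 in wild type and 313 in knockout for B and plasma cells (4 measured of 7 listed), 3089 and 1615 for mast cells and basophils (4 of 5), 7084 and 7984 for granulocytes (8 of 8, where 7 were lower, with a median difference of -0.39, and only S100a8, at 4517 and 6093, was higher), 21830 and 25157 for macrophages and monocytes (6 of 7), 41357 and 36635 for dendritic cells (9 of 9), 458 and 372 for T and NK cells (3 of 6), and 277 and 222 for stroma (3 of 4). Of the 3 measured T and NK cell markers, Cd8a and Cd4 were higher (0.24 and 0.17), and only Thy1, at 256 in wild type and 118 in knockout, was lower. The sums take each signal as it stands, also where it is under the floor, an intensity of 67.6. The B cell markers Cd79a and Pax5, the T cell markers Cd3e and Cd3g and the basophil marker Fcer1a were under that floor in wild type and knockout alike. Of 19 measured proliferation genes 15 were higher and 4 lower (median difference 0.31), 78.9% higher beside 51.5% of all measured genes. At least 1.3-fold, 7 were higher and 3 lower: Cdc20 (-0.83), Mcm2 (-0.75, but 0.44 at its second probe set) and Birc5 (-0.73). The 18S ribosomal RNA control probe sets, read from the deposited values, were at 95.1 to 126.1 in wild type and 389.2 to 581.9 in knockout. The part of these differences in the values below was not tested.

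As a family, the 75 genes had nearly the same signal in both genotypes. All 75 lay above the floor on both arrays. For differences, a value under the floor of 67.6 was set to it. The lowest, median and highest signals were 154, 622 and 2389 in wild type, against 157, 627 and 2460 in knockout. The median difference was 0.03, beside 0.01 over the 11878 measured genes. Of the 75 genes, 43 were higher and 32 lower in the knockout, beside 51.5% and 48.5% of all measured genes. Differences ran from -0.59 to 0.60. No member reached 2-fold in either direction, beside 0.572% (higher) and 0.615% (lower) of all measured genes. At least 1.3-fold, a size larger than the probe set SD, 5 members were higher (6.67%, beside 11.5% of all genes) and 4 lower (5.33%, beside 10.6%). In both directions together that was 9 of 75, or 12%, beside 22.2%. Since every member was above the floor on both arrays, the 10355 genes with that property are the closer background: 51.8% were higher and 48.1% lower, 10.8% and 9.67% at least 1.3-fold higher and lower, and 0.464% and 0.541% at least 2-fold. The differences of 60 members (80.0%) lay within the probe set SD, beside 67.3% of all genes.

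**Figure D1:**
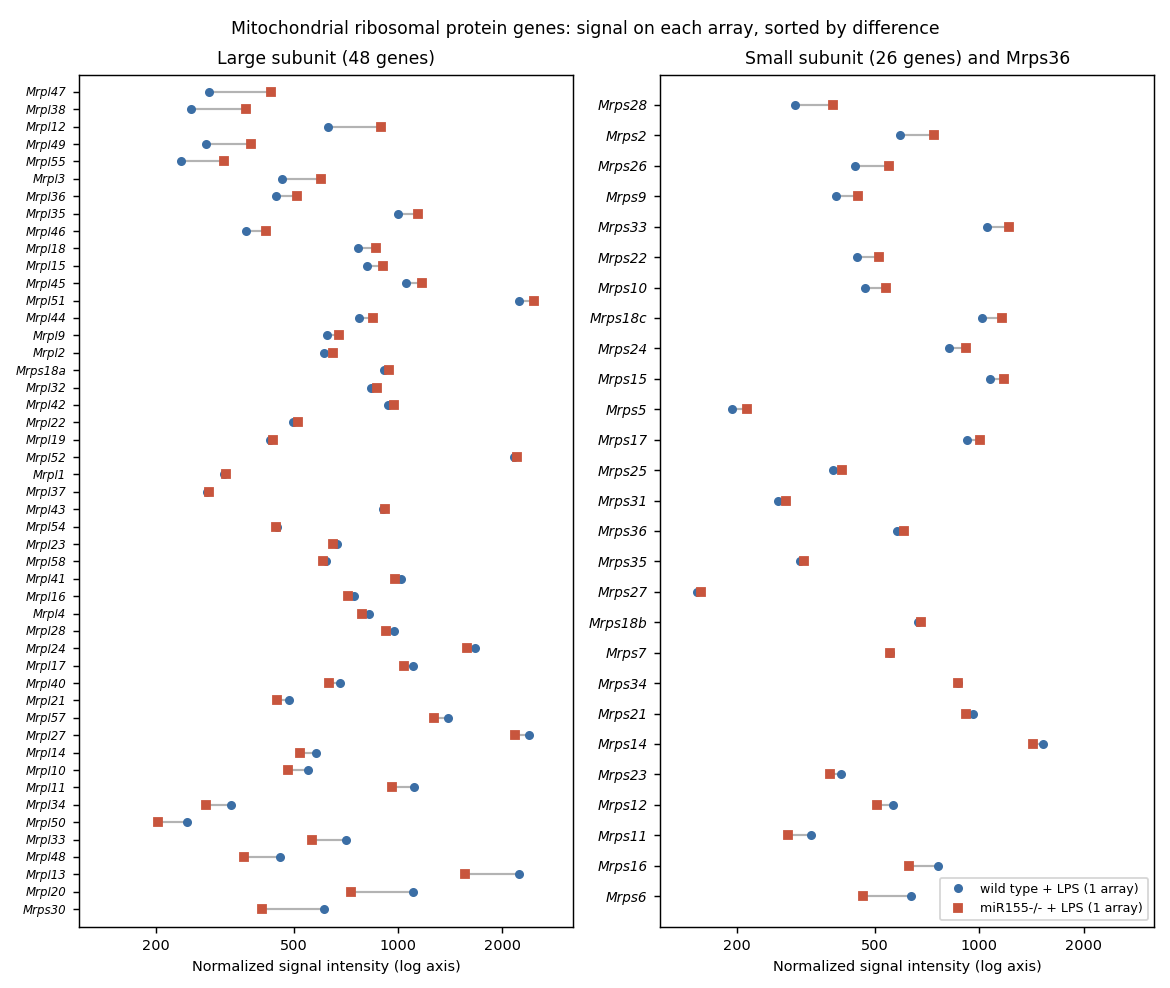
Normalized signal of each of the 75 genes on the wild type + LPS array (circles) and the miR155-/- + LPS array (squares), on a log axis, 1 array each and no error bars. Genes are sorted by difference, from Mrpl47 (284 and 430) to Mrps30 (610 and 404) for the large subunit on the left and from Mrps28 (295 and 378) to Mrps6 (635 and 462) for the small subunit and Mrps36 on the right. The paired points of most genes nearly touch.

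The narrower spread has to be read beside signal level, because dim genes vary more on these arrays. The SD over genes was 0.24 for the members and 0.34 for all measured genes, and the interquartile width was 0.26 and 0.38. Of the 75 members, 70 had a mean signal above that of the median measured gene. When the members were divided into 3 equal ranges of signal, the share past 1.3-fold either way was 16%, 12% and 8% from low to high. All measured genes inside the same ranges gave 22.1%, 13.3% and 13.4%. The median difference of the 25 members of low signal (155 to 494) was 0.07, beside 0.02 over the 3776 genes in that range. Of these members 18 were higher and 7 lower (72.0% higher, beside 53.2% of the genes in that range). In the middle range the members' median was 0.00 (12 higher, 13 lower) and in the high range 0.01 (13 higher, 12 lower). Among all genes in the middle and high ranges, 51.2% and 52.3% were higher. Over all 75 members the difference and the mean signal had a Pearson's r of -0.17 and a Spearman's rho of -0.12, points that share the same pair of arrays and the same normalization.

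**Figure D2:**
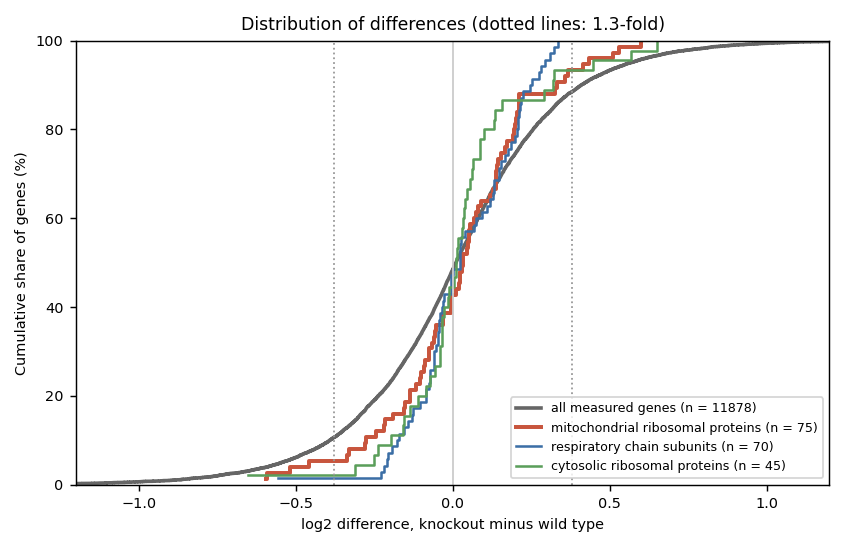
Cumulative share of genes (percent) against the log2 difference, knockout minus wild type, for the 75 members, 11878 measured genes, 70 respiratory chain subunits and 45 cytosolic ribosomal proteins, from 1 array per genotype. Dotted lines mark 1.3-fold; all 4 curves cross 50% near 0, and that of all measured genes is the flattest.

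The subunits of the ribosome were also described apart. The 48 genes of the large subunit had a median difference of 0.02, with 25 higher and 23 lower. They hold 8 of the 9 members past 1.3-fold, a share of 16.7%, beside 22.2% of all measured genes. The 26 genes of the small subunit had a median of 0.08, with 17 higher and 9 lower (65.4% higher, beside 51.5% of all measured genes). Only Mrps6 of these passed 1.3-fold (3.85%). Symbols do not follow the subunits exactly: the products of Mrps30 and Mrps18a are known to sit in the large subunit, and that of Mrps36, first taken for a ribosomal protein, belongs to the oxoglutarate dehydrogenase complex. Mrps36 was at 577 in wild type and 604 in knockout, a difference of 0.07. The 47 genes with a bacterial homologue had a median of 0.03 (25 higher, 22 lower), and so did the 27 genes found only in mitochondria (17 higher, 10 lower). The shares higher were 53.2% and 63.0%, beside 51.5% of all measured genes. Whether these classes differ from each other was not tested, as 1 array per genotype gives no error between cultures.

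Mrpl47 had the highest difference of the family. It encodes the counterpart of bacterial L29, a protein at the exit of the tunnel through which the new chain leaves. It read 284 on the wild-type and 430 on the knockout array, 1.52-fold higher. Only 1 of its 3 probe sets was measured. Mrpl12 encodes the stalk protein that meets the translation factors. Its only probe set read 627 in wild type and 894 in knockout, 1.43-fold higher. Mrpl55, the counterpart of bacterial L31, was at 236 and 315, 1.33-fold higher, again from a single probe set.

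The other higher members past 1.3-fold were Mrpl38, a protein of the central protuberance of the large subunit (253 in wild type, 365 in knockout, 1.44-fold), and Mrpl49, a mitochondria-specific protein (279 and 377, 1.35-fold). In both genes a second measured probe set pointed the other way. It read 122 in wild type and 110 in knockout for Mrpl38 (-0.14), and 215 and 194 for Mrpl49 (-0.15). Of all 5 higher members, then, 3 rest on 1 measured probe set and 2 on probe sets that disagree in sign.

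The lowest differences were those of Mrps30 and Mrpl20, each read by 1 probe set. Mrps30, a mitochondria-specific protein of the large subunit related to the product of Mrpl37, was at 610 in wild type and 404 in knockout, 1.51-fold lower. Its relative Mrpl37 was at 281 and 285 (0.02). Mrpl20, the counterpart of a bacterial protein that binds ribosomal RNA early in assembly, was at 1105 and 733, 1.51-fold lower.

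Mrpl13, a bacterial homologue in the large subunit, was at 2229 in wild type and 1555 in knockout, 1.43-fold lower. All 4 of its measured probe sets were lower, but by unequal amounts: the others had differences of -0.10, -0.26 and -0.03. Mrps6, a bacterial homologue in the small subunit, was at 635 and 462, 1.37-fold lower. Its second probe set differed by -0.06 (353 and 338). Of the 9 members past 1.3-fold, 5 had 1 measured probe set. In the other 4 no further measured probe set passed 1.3-fold in the same direction.

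The member nearest to 1.3-fold without reaching it was Mrpl3 on the higher side (464 in wild type, 598 in knockout, 1.29-fold) and Mrpl48 on the lower side (456 and 360, 1.26-fold). Mrpl3, the counterpart of bacterial L3 close to the catalytic centre, had a second bright probe set that did pass, at 433 and 591 (0.45), and a dim one with -0.15. Mrpl48, a protein of the central protuberance, had the widest disagreement in the family: its other probe sets had differences of 0.12 and 0.56. Mrps28 (295 and 378, 1.28-fold), Mrps2 (589 and 741, 1.26-fold) and Mrps26 (437 and 547, 1.25-fold), all of the small subunit, followed on the higher side. The second probe set of Mrps2 gave the same signal on both arrays, 179.6. On the lower side Mrpl33 (708 and 563, 1.26-fold), Mrps16 (761 and 627, 1.21-fold) and Mrpl50 (246 and 203, 1.21-fold) came next. The second probe set of Mrpl50 had a difference of 0.01.

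Within the large subunit, proteins that work side by side in the ribosome were also set next to each other. Whether such neighbours share a direction was not tested, and the differences of Mrpl10, Mrpl11 and Mrpl1 below lay within the probe set SD. Of the stalk proteins, Mrpl12 was higher (0.51), whereas Mrpl10, which anchors it, was at 550 in wild type and 482 in knockout (-0.19) and its neighbour Mrpl11 at 1114 and 959 (-0.22). Mrpl11 had 3 further measured probe sets, all higher, with differences of up to 0.39. Mrpl1, the mobile stalk on the opposite side, was at 314 and 318 (0.02).

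At the tunnel exit, Mrpl22 (499 in wild type, 516 in knockout), Mrpl23 (664 and 650), Mrpl24 (1661 and 1575) and Mrpl17 (1107 and 1041) had differences of 0.05, -0.03, -0.08 and -0.09, next to the 0.60 of Mrpl47. Mrpl45, which ties the ribosome to the inner membrane, was at 1057 and 1168 (0.14). In the central protuberance Mrpl18 (764 and 862, 0.17) and Mrpl46 (364 and 417, 0.20) were higher, and Mrpl40 (680 and 633, -0.10) was lower. Mrpl58, a peptidyl-tRNA hydrolase built into the ribosome that frees stalled chains, was at 619 and 605 (-0.03). Each of these differences was smaller than the probe set SD except that of Mrpl47.

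Mrpl32, whose product is matured by the m-AAA protease of the inner membrane, was at 837 in wild type and 868 in knockout (0.05). The subunits of that protease, Afg3l2 (382 and 468) and Spg7 (225 and 263), had differences of 0.29 and 0.23, but the 3 measured probe sets of Afg3l2 ranged from -0.85 to 0.96. Mrpl44, in which mutations cause cardiomyopathy, was at 772 and 849 (0.14), with 2 of its 4 probe sets higher and 2 lower. The highest-signal members were Mrpl27 (2389 and 2171), counterpart of a bacterial protein near the catalytic centre, Mrpl51 (2231 and 2460), Mrpl52 (2161 and 2196), Mrpl13 and Mrpl24. Signals of different probe sets are not levels that can be ranked against each other. The differences of Mrpl27, Mrpl51 and Mrpl52 were -0.14, 0.14 and 0.02.

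In the small subunit most differences were small as well. Mrps12, the counterpart of the bacterial decoding protein S12, was at 565 in wild type and 508 in knockout (-0.15). Mrps11, of the platform, was at 327 and 281 (-0.22), and Mrps15 at 1071 and 1179 (0.14), with both measured probe sets higher. In the head of the subunit Mrps7 (554 and 552), Mrps9 (385 and 446), Mrps10 (468 and 539) and Mrps14 (1523 and 1428) had differences of 0.00, 0.21, 0.20 and -0.09. The second measured probe set of Mrps14 had -0.46.

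The 9 measured mitochondria-specific genes of the small subunit had a median of 0.07, with 7 higher and 2 lower (77.8% higher, beside 51.5% of all measured genes). None passed 1.3-fold, beside 22.2% of all measured genes in either direction, and 9 genes are few for such a share. Mrps22, mutated in an inherited respiratory chain disorder, was at 443 and 513 (0.21), and Mrps33 at 1053 and 1220 (0.21). Mrps27, an RNA-binding protein of the pentatricopeptide type, was the dimmest member at 154 and 157 (0.03). Mrps23 was lower in 3 of 3 probe sets by nearly the same amount, -0.10 to -0.12, with the brightest at 399 and 371. Mrps34 was at 869 and 866 (-0.01).

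The members not yet described all lay within the probe set SD. Among bacterial homologues of the large subunit, Mrpl36 (444 in wild type, 510 in knockout) and Mrpl35 (996 and 1141) each had 0.20, and Mrpl34 had the lowest value, -0.25 (330 and 278). Mrpl9, Mrpl2, Mrpl16, Mrpl4, Mrpl28, Mrpl21 and Mrpl14 ran from 0.12 for Mrpl9 to -0.16 for Mrpl14. Mrpl42, Mrpl43, Mrpl54, Mrpl41 and Mrpl57, specific to mitochondria, ran from 0.05 for Mrpl42 to -0.14 for Mrpl57 (1393 and 1267). In the small subunit Mrps24, Mrps5, Mrps17, Mrps25, Mrps31 and Mrps35 were higher, from 0.16 for Mrps24 (816 and 914) to 0.04 for Mrps35, and Mrps21 had -0.06.

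The 3 relatives of bacterial S18 were close in both genotypes. Mrps18a, in the large subunit, was at 908 in wild type and 943 in knockout (0.05). Mrps18b was at 667 and 680 (0.03), and Mrps18c at 1018 and 1162 (0.19). Each was read by 1 probe set, and each was slightly higher by less than the probe set SD.

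Where a gene had several measured probe sets, they often disagreed in direction. Of 31 such members, 3 had all probe sets higher (Mrps15, Mrps25 and Mrpl19), 8 had all lower, and 20 were mixed. All probe sets agreed in direction in 35.5% of them, beside 46.3% of the 5163 genes of all kinds with several measured probe sets. After Mrpl48, the widest ranges were those of Mrpl15 (-0.62 to 0.24 over 6 probe sets), Mrpl19 (0.03 to 0.82 over 3), Mrpl27 (-0.14 to 0.61 over 2) and Mrpl38. The probe sets at the far ends were dim: that of Mrpl15 was at 108 in wild type and 70.6 in knockout, that of Mrpl19 at 81.3 and 143, and that of Mrpl27 at 178 and 272. Counted on their own, 127 measured probe sets had a median difference of 0.01, with 66 higher and 60 lower.

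**Figure D3:**
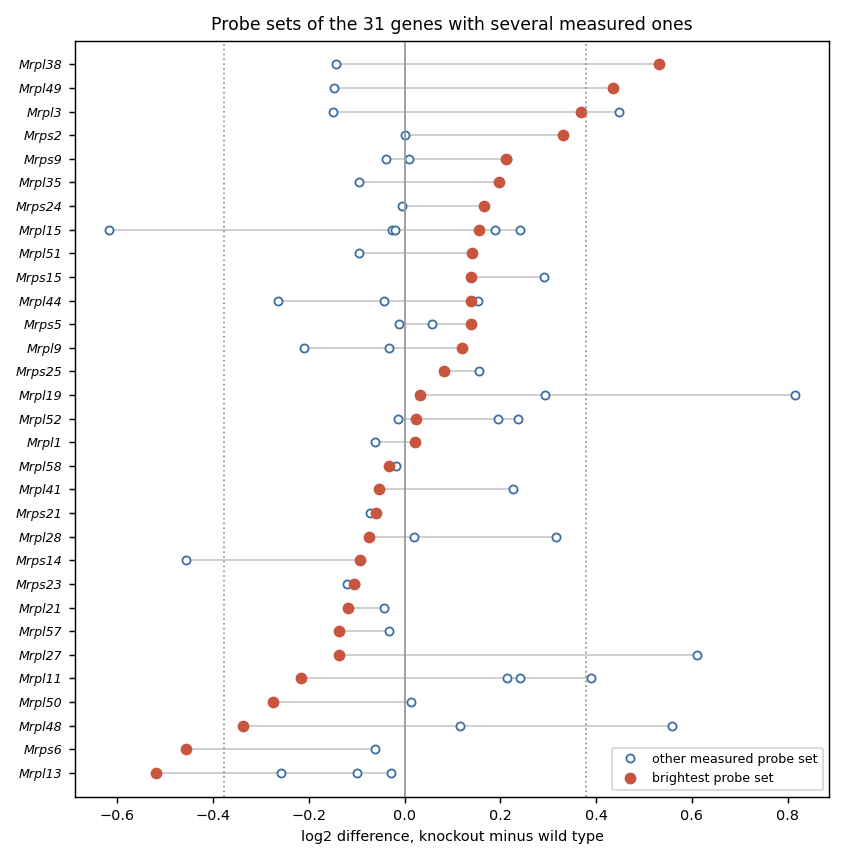
Log2 difference, knockout minus wild type, of every measured probe set of the 31 genes that had several, with the probe set of highest signal filled and the others open. Dotted lines mark 1.3-fold. Most rows cross 0, and the rows of Mrpl38 and Mrpl49 at the top reach -0.14 and -0.15.

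The 75 genes lie on 17 chromosomes. Apart from Mrpl39, which the choice of members left out, 2 lie on chromosome 16 with the deleted microRNA gene: Mrps6 (-0.46) and Mrpl40 (-0.10). Mrpl39 itself was at 1248 in wild type and 302 in knockout at one probe set and at 478 and 210 at the other, 4.13-fold and 2.27-fold lower. No member reached 2-fold.

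Promoters are shown for the highest and lowest members that had an entry in the RefSeq table (GRCm38.p6), as these genes carry the extremes of the family. Each window runs from 250 bases before the annotated start to 50 after it, 5′ to 3′ on the gene's strand. Capitals would mark matches, on either strand, to motifs of factors known for genes of mitochondrial proteins: the NRF1 consensus, CCGGAAG for the ETS factors such as GABP, AAGATGGC for YY1 and GGGCGG for SP1. The windows are chr3:32736706-32737005 (minus strand) for Mrpl47, chr11:120484387-120484686 (plus) for Mrpl12, chr4:155802628-155802927 (plus) for Mrpl20 and chr13:118387203-118387502 (minus) for Mrps30.
Mrpl47: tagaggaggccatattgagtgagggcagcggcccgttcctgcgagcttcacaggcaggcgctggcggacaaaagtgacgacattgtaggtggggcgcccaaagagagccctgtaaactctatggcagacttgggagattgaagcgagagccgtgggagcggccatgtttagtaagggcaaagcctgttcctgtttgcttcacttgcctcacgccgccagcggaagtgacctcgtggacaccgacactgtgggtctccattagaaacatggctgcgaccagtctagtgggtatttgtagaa
Mrpl12: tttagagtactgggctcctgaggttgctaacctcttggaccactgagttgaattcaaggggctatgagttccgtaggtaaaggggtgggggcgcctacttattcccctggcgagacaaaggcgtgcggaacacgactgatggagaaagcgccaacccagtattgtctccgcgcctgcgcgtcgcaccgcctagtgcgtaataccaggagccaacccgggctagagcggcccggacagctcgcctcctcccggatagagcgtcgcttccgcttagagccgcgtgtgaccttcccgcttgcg
Mrpl20: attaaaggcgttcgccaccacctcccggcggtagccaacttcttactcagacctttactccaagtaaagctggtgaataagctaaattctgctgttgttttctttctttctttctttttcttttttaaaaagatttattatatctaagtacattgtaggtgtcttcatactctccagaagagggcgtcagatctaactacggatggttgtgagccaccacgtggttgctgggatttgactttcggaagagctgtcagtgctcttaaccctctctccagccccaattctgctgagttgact
Mrps30: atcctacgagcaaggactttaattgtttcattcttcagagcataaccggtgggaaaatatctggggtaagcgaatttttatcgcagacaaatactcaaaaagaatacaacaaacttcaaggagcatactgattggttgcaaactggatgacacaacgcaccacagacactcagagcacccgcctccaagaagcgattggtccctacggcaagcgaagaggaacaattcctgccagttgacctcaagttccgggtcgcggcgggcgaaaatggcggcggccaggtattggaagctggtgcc

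None of these 4 windows holds a match, so all letters are lower case. Windows without any of the 4 motifs were not particular to them. Such windows were found for 15 of the 66 members with an entry (22.7%), beside 26.2% of measured genes and 56.5% of all genes with an entry. Over the 66 members with an entry, the ETS motif was present in 25 (37.9%), beside 19.5% of 9612 measured genes and 9.93% of all 27025 genes with an entry. The YY1 motif was present in 12 (18.2%), beside 5.16% and 3.19%. The NRF1 consensus was present in 5 (7.58%), beside 3.20% and 1.41%. A looser form of it, without the outer letters and with any base in the middle, was searched first and was present in 11 (16.7%), beside 11.2% and 5.19%, among them Mrpl12; the consensus was taken after that result was seen. The SP1 motif was present in 34 (51.5%), beside 66.1% and 38.2%. A gene with several windows counted once, if any of them matched. A window may hold several motifs, and their letters may overlap. Median differences of members with and without a motif were 0.12 and 0.02 for NRF1, 0.01 and 0.07 for ETS, 0.05 and 0.02 for YY1 and 0.05 and 0.00 for SP1. Whether members with and without a motif differ was not tested. A match is a run of letters and not a bound site.

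Ribosomal proteins named outside the Mrp series were measured for 4 of 5 genes listed, and all 4 were higher. Beside this list and those that follow, 51.5% of all measured genes were higher and 48.5% lower. At least 1.3-fold, 11.5% were higher and 10.6% lower. Gadd45gip1, a large subunit protein also known as CRIF1, was at 171 in wild type and 262 in knockout (1.53-fold). Ptcd3, an RNA-binding protein of the small subunit, was at 290 and 393 (1.36-fold), but its second probe set had -0.42. Dap3, a GTP-binding protein of the small subunit, was at 685 and 831 (1.21-fold), and Chchd1 at 1391 and 1396 (0.00).

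Factors that run the translation cycle had a median difference of 0.01 over 13 measured of 17 listed genes, with 7 higher and 6 lower. At least 1.3-fold there was 1 higher and 1 lower gene. Rmnd1, an inner membrane protein needed for translation, was at 91.9 and 154 (1.68-fold higher), and the initiation factor gene Mtif3 at 125 and 94.6 (1.32-fold lower). The other extremes were Lrpprc (0.20), which stabilises mitochondrial mRNAs, the initiation factor gene Mtif2 (0.17), the elongation factor gene Tufm (-0.26, 523 and 437) and the insertase gene Oxa1l (-0.17). The second probe sets of Tufm and Oxa1l were higher (0.16 and 0.05).

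Genes for assembly of the ribosome and modification of its RNA had a median of 0.08 over 25 measured of 27 listed, with 15 higher and 10 lower. Of these 3 were at least 1.3-fold higher and 1 lower, or 12% and 4%, beside 11.5% and 10.6% of all measured genes. Mrm3, a methyltransferase of the large ribosomal RNA, was the only gene of the pathway past 2-fold, at 103 in wild type and 232 in knockout (2.25-fold, 1 probe set). Mettl17 (214 and 323, 1.51-fold) was higher in 3 of 3 probe sets, and the pseudouridine synthase family gene Rpusd4 was at 191 and 276 (1.44-fold). Nsun4, another methyltransferase of ribosomal RNA, was at 381 and 269 (1.42-fold lower), with 3 of 3 probe sets lower. Eral1, a chaperone of the small ribosomal RNA, had -0.34 with 4 of 5 probe sets lower, and Mrm1 had -0.21.

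Mitochondrial aminoacyl-tRNA synthetases and the related amidotransferase had a median of 0.05 over 17 measured of 20 listed, with 11 higher and 6 lower. Gatc (156 and 227, 1.45-fold), Ears2 (88.5 and 119, 1.35-fold) and Tars2 (206 and 275, 1.34-fold) were past 1.3-fold. That was 17.6% higher and 0% lower, beside 11.5% and 10.6% of all measured genes. Ears2 was dim, and the second probe set of Tars2 had -0.01. The lowest were Wars2 (-0.32, but 0.39 at its second probe set), Sars2 (-0.28) and Pars2 (-0.17). Transcription and genome maintenance genes had a median of 0.05 (7 higher, 3 lower, 10 of 10 measured). Polrmt, the mitochondrial RNA polymerase, was at 252 and 380 (1.51-fold), with 0.02 at its second probe set, and the elongation factor gene Tefm at 201 and 266 (1.32-fold). Mterf1a had 0.15. Tfb2m and Tfam, which start transcription, each had -0.15, and Polg2 had -0.06. The second probe set of Tfam had 0.13.

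Import genes had a median of 0.02 over 22 measured of 25 listed (13 higher, 9 lower). Tomm7 (1280 and 1821, 1.42-fold) was higher in 3 of 3 probe sets, Tomm20 had 0.36 and Tomm34 0.35, and Pmpcb, a subunit of the peptidase that removes import signals, had -0.35 with 2 of 2 probe sets lower. Timm17b and Timm21 had -0.27 and -0.19, with 0.11 at the second probe set of Timm17b. Mitochondrial chaperones and proteases were higher in 10 of 11 measured genes (12 listed) with a median of 0.14. Of these, 10 lay within the probe set SD and only Lonp1 passed 1.3-fold (423 and 560). Afg3l2 and Trap1 followed with 0.29 and 0.27, and Hspd1 was the 1 lower gene (-0.02).

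Among regulators of mitochondrial gene expression, 6 of 11 were higher and 5 lower (median 0.04). Myc was at 89.5 and 141 (1.58-fold higher), Ppargc1b, a coactivator of mitochondrial biogenesis, at 225 and 352 (1.56-fold higher), and Ppargc1a was above the floor only in the knockout, at 99.8, at least 1.48-fold higher. Nrf1, Sp1 and Gabpb1, whose products bind the motifs above or pair with such a factor, were at 272 and 222 (-0.30), 1231 and 1016 (-0.28) and 189 and 159 (-0.25). Gabpa and Yy1 each had 0.04. Measured probe sets differed in sign for Nrf1 (-0.30 to 0.09), Gabpb1 (-0.25 to 0.22), Gabpa (-0.40 to 0.04) and Yy1 (-0.32 to 0.14). All 3 of Sp1 were lower.

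**Figure D4:**
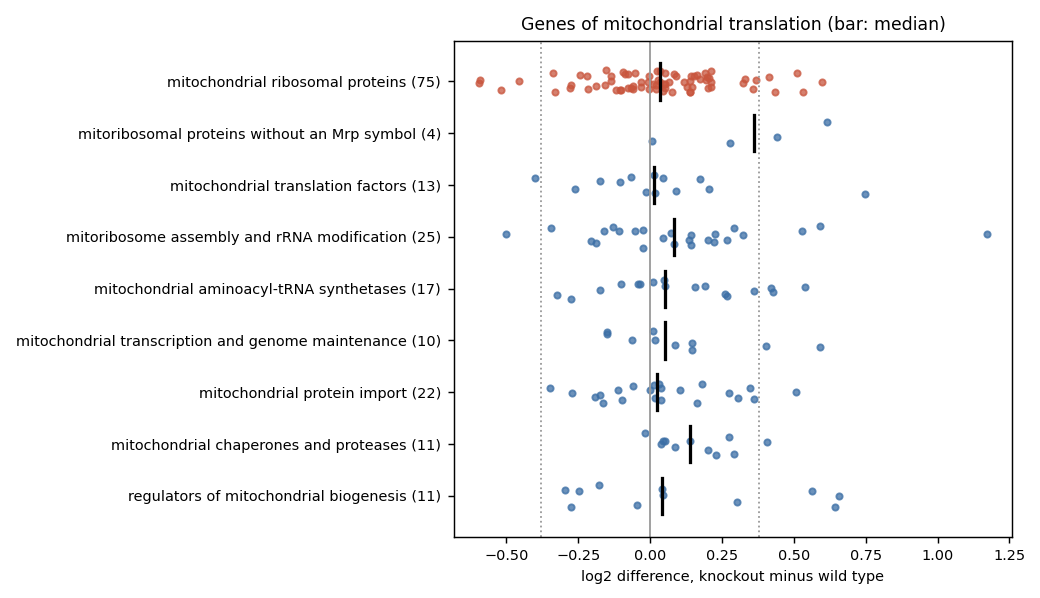
Log2 difference, knockout minus wild type, of each measured gene (points) in the Mrp family and 8 lists of the same pathway, with the median as a bar and the number measured in parentheses. Vertical scatter within a row has no meaning. The 75 Mrp points lie between -0.59 and 0.60, and Mrm3 is the far point at 1.17.

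Respiratory chain genes, most of whose complexes also need the products of this ribosome, and genes of the cytosolic ribosome were set beside the family. Respiratory chain subunits encoded in the nucleus had a median of 0.02 over 70 measured of 75 listed, with 36 higher and 34 lower. Only Cox8a, at 1710 and 1163, passed 1.3-fold (1.43%, beside 22.2% of all measured genes). The 3 measured probe sets of Cox8a ranged from -0.56 to 0.16. Uqcrc1 (0.34), Ndufb5 (0.32) and Cox5a (0.31) had the highest differences. Cytosolic ribosomal proteins had a median of 0.01 over 45 measured of 48, with 25 higher and 20 lower. With loess in place of quantile normalization that tally turned to 15 higher and 30 lower (median -0.05), while the Mrp family kept 43 and 32 and the respiratory chain had 37 and 33. With quantile normalization 4 cytosolic genes were past 1.3-fold (8.89%), 3 of them higher: Rps6 (276 and 432), Rpl12 (113 and 168) and Rpl37 (1464 and 1993). The lower 1 was Rpl39l, a tissue-restricted relative of Rpl39, above the floor only in wild type. Probe sets of several cytosolic genes were dim for such abundant proteins, and members of these gene families can share sequence. The share past 1.3-fold in the Mrp family was 12%, and whether it differs from either list was not tested.

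The scaling of the arrays shifted the whole family, whose median stayed above 0 under each of the 5 scalings. In the deposited values all 75 members were higher in the knockout, with a median of 0.62, when the median of all measured genes was 0.54. With each array centred on its median, 63 were higher and 12 lower. With scaling on 18 hybridisation controls, 68 were higher and 7 lower. Relative to the median measured gene, the family's median was 0.02 with quantile normalization, 0.03 with loess, 0.06 with array medians, 0.07 with hybridisation controls and 0.09 without scaling. The deposited values, the array medians and the hybridisation controls are offset by the same amount in every member, so relative to that gene they amount to 1 check and not 3. Relative to it, 65 of the 75 members had the same sign throughout, 42 higher and 23 lower, and the 10 others were within 0.08 of the median gene. All 9 members past 1.3-fold stayed past it when taken relative to the median gene, in the same direction. On that measure Mrpl47 ranged from 0.58 to 0.64 and Mrps30 from -0.61 to -0.54.

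**Figure D5:**
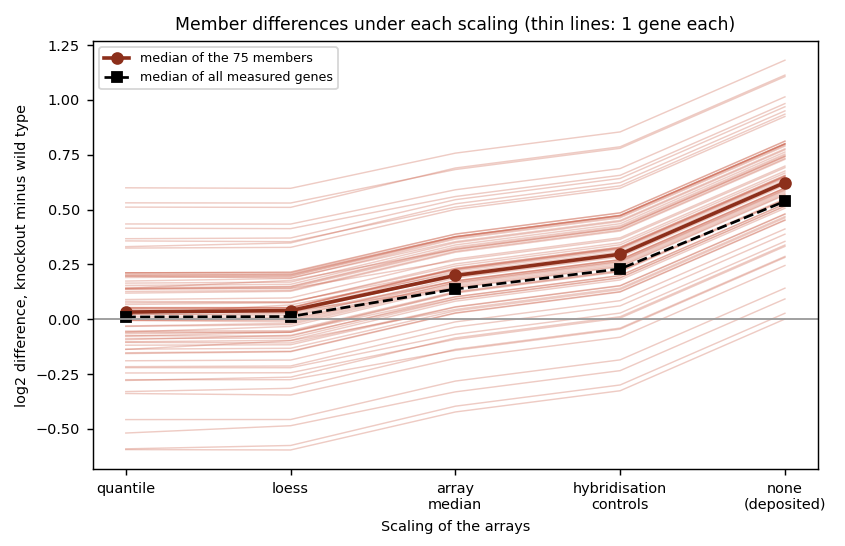
Log2 difference, knockout minus wild type, of each member (thin lines) under 5 scalings of the arrays, with the median of the 75 members (circles) and of all measured genes (squares). The lines move up together from quantile normalization to the deposited values, where the medians are 0.62 and 0.54, and they seldom cross.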

How the data were processed

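Total RNA (6 ug per sample) was hybridised as biotin-labelled cRNA to 1 Affymetrix array per genotype, per the labels' protocols. The values the authors deposited are linear intensities of 45101 probe sets. The sources used here do not give how they were summarised and scaled. Because the medians differed by 34.1% (over 10%), the 45037 probe sets that are not among the 64 controls were quantile normalized in log2, and values under the median of all values (67.6) were set to it. Gene names are those of the platform annotation, which named 1 gene for 34945 probe sets, several for 932 and none for 9160; chromosomes, for 75 of 75 members, and list synonyms came from the RefSeq table (GRCm38.p6). A gene was represented by its probe set of highest mean signal, whatever its difference. Differences are knockout minus wild type; a gene counted as measured if above the floor on at least 1 array. No p-value was computed, and the number of arrays limits the precision.

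The members and lists were chosen with earlier results of these data known, the lists from general knowledge of the genes. Genes named are the members, and in other lists mainly the 3 highest and 3 lowest. The normalization code was tested on simulated data. Python 3.11.15, numpy, pandas 2.3.3, statsmodels 0.14.6 (loess span 0.3) and matplotlib were used. The NRF1 motif form was changed after its first result was seen. Alternatives were 4 scalings, 2 floors, 2 gene summaries and a filter on probe sets.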

Additional observations from a re-analysis of the deposited data

Results flagged for a closer look

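A probe set outside the comparison, which the annotation assigns to both Nme3 and Mrps34, had a signal of 160.6 in the knockout and 32.4 in wild type, below the floor, so that it was at least 2.38-fold higher. It was singled out because its signal in the knockout exceeded that of the control array by more than 1.3-fold. The probe set that names Mrps34 alone read 869 and 866. Which of the genes the shared probe set reads was not tested.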

How the results depend on the processing

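The median difference of the 75 genes was above 0 under the main setting and all 9 alternatives, from 0.01 to 0.62, and lay close to the median of all measured genes each time. Without normalization it was 0.62, with 75 genes higher and 0 lower, and 65 and 0 past 1.3-fold higher and lower. Centring on array medians gave 12 lower, and 11 and 2 past 1.3-fold higher and lower. Scaling on hybridisation controls gave 68 higher and 7 lower, and 26 and 0 past 1.3-fold. These scalings add a nearly common shift, which is their construction, so the counts on either side of 0 follow it. Counting each of 127 measured probe sets alone gave 66 higher, 60 lower and 10 at least 1.3-fold higher. The floors, loess, the mean over probe sets and the omission of _x_at and _s_at probe sets kept every count within 1.5 times the main one. With the mean over probe sets 72 genes were measured, 4 at least 1.3-fold higher and 6 lower.

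No paired analysis was possible because each genotype has 1 array, and leaving out a replicate was not possible either. Differences therefore describe these arrays, and signals of dim probe sets are the least certain.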

Other observations

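Other probe sets named an Mrp gene outside the 75 together with another gene, and their differences ran from -0.23 to 0.35. For Mrpl30 and Gm6238 the brighter read 2837 in wild type and 2599 in knockout (-0.13) and the dimmer 113 and 144 (0.35). For Mrpl53 and Ccdc142 the signals were 840 and 714 (-0.23). Signals at the 3' end over those at the 5' end, which bear on RNA quality, gave ratios of 1.28 (wild type) and 1.25 (knockout) for Actb, and of 0.843 and 0.883 for Gapdh. No transcript of the mitochondrial genome was named by the annotation under the symbols listed, so those transcripts were not analysed here.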
